A study of Homo sapiens with 18 samples.

Results

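MDA-MB-436 cells that carried a control small interfering RNA (siRNA) were compared with a control of the same line that the labels do not describe as siRNA-treated. MDA-MB-436 is a widely used human breast cancer line of the triple-negative class. The comparison holds 4 of the 18 samples of the series, 2 libraries of the siRNA control and 2 of the control, chosen by their titles. All 4 were made by PLATE-seq, in which poly(A) RNA of lysates in a plate is barcoded well by well and sequenced as a pool, from cells grown in DMEM with 10% bovine growth serum, penicillin and streptomycin. The genotype label of the first group was siRNA_Control and that of the second was Control. The labels did not give the siRNA sequence, its dose, the transfection reagent, the time after transfection, or whether the control was mock-treated. They also did not say whether both groups were cultured side by side. The siRNA, its delivery and any difference in culture therefore cannot be told apart.

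The same plate assay also held 2 libraries of cells with siRNA against SMARCAL1 and 2 libraries of each of SMARCAL1 knockout clones 1, 2 and 3. SMARCAL1 rewinds unwound DNA and reshapes replication forks that have stalled. The series set SMARCAL1-proficient against SMARCAL1-deficient cells, with innate immune signalling and PD-L1 as its named outcomes. Setting siRNA SMARCAL1 against the mean of the knockout clones gave a second contrast of siRNA with non-siRNA libraries, in which both sides were labelled SMARCAL1-deficient and which shared no library with the first.

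Short double-stranded RNA is loaded into Argonaute proteins, which use one strand to silence matching transcripts. Double-stranded RNA can also be sensed by toll-like receptors in endosomes and by RIG-I-like receptors and PKR in the cytosol, which signal to interferon, to NF-kappa-B and to the integrated stress response. Lipid carriers deliver siRNA by way of endosomes and lysosomes. Gene lists for each of these routes were therefore examined, with cytokine, antigen presentation and stress lists.

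The 4 libraries held 890402 and 807861 counts in the control and 1127399 and 1460313 in the siRNA control. The 2 control libraries were the shallowest of the 12. Replicates correlated at 0.857 in the control and 0.894 in the siRNA control (Pearson's r of log CPM across 8595 genes, which are not independent), and libraries of the different groups at 0.853 to 0.875. CPM are counts scaled to the size of the library. Spike-in RNA made up 0.0230% to 0.0534% of the counts in replicate 1 of the 6 groups and 0.000205% to 0.00136% in replicate 2, so the replicate number went with the spike-in level in every group. Mitochondrial ribosomal RNA was 6.31% and 3.79% of counts in the siRNA control and 3.31% and 2.88% in the control. Over 8 measures of library composition, the 4 siRNA libraries did not differ detectably from the other 8 (two-sided exact permutation tests, adjusted p from 0.819 to 0.909). The line's markers VIM, CD44, LGALS1, AXL and CAV1 were present in all 4 libraries, and ESR1 and PGR had 0 counts. The other genes taken as low or absent in this line were low but present. ERBB2 had 0 and 3 counts in the control and 7 and 13 in the siRNA control, EPCAM 1 and 1 against 4 and 12. CDH1 had 5 and 5 counts against 10 and 28. Of 14 leukocyte markers 11, and of 11 endothelial markers 8, had 0 counts in the 4. The titles name MDA-MB-436, while the cell line tags count up from MDA-MB-437, ending at MDA-MB-448, across the plate samples, which was taken as an error of filling in.

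SMARCAL1 itself had 0 and 3 counts in the control, 7 and 8 in the siRNA control, 0 and 0 with siRNA against SMARCAL1, and 3 to 44 in the knockout clones. Its pooled ratio of siRNA control to control was 3.28, with an exact 95% interval of 0.928 to 17.7 that covers counting error only. The level was too low to show a difference, and a transcript count does not check a knockout made by a small edit.

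Across the 8595 genes tested, the siRNA control and the control differed in 1 gene at an adjusted p under 0.05, which is 0.0116% of the genes. DESeq2 called 5 and limma-voom 2. At an unadjusted p under 0.05, 661 genes (7.69%) differed, 362 (4.21%) higher in the siRNA control and 299 (3.48%) lower. The log2 difference was above 0 in 50.3% of genes, with a median of 0.01. Both siRNA control libraries lay above both control libraries in 19.4% of genes and below both in 17.1%, which is the background for the counts of non-overlapping groups given here. With 2 libraries a group, an exact permutation test of 1 gene cannot go below 0.333, so every p rests on the spread shared across the 12 libraries.

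The gene past the threshold was ATP6V0B, which encodes a membrane subunit of the vacuolar proton pump that acidifies lysosomes and endosomes (chromosome 1, 43974487 to 43978295, plus strand, GRCh38). It had 215 and 279 CPM in the control and 923 and 594 CPM in the siRNA control. The groups did not overlap. ATP6V0B rose by a log2 difference of 1.62 (SE 0.251, edgeR adjusted p = 0.00551). The call was lost without replicate 1 of the control (log2 1.44, adjusted p = 0.207) or of the siRNA control (1.27, 0.377). It had 959 and 744 CPM in siRNA SMARCAL1 and 438 to 854 CPM in the knockout clones, of which clone 2, at 438 and 449 CPM, lay between the control and the siRNA control. The control libraries were thus the lowest of the 12, and siRNA SMARCAL1 against the knockout clones gave 0.54 (adjusted p = 0.294). The test of the difference between the 2 contrasts gave an unadjusted p of 0.00227 and an adjusted p of 0.289. GENCODE places AL357079.2 on the other strand of its exons, and the strand setting of the counts is not given.

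**Figure D1:**
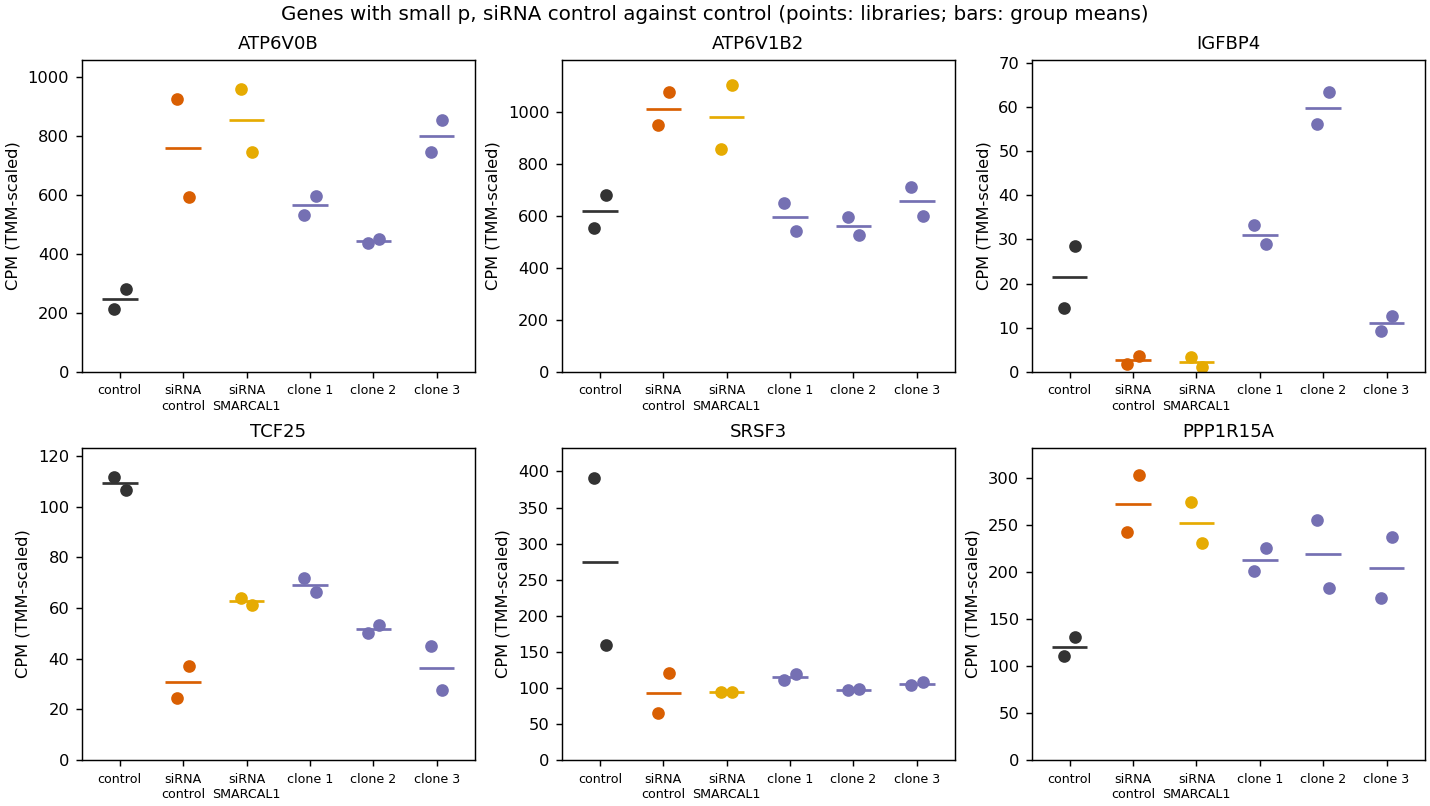
Level of 6 genes in TMM-scaled CPM (vertical axes, from 0) in the 12 PLATE-seq libraries by group (horizontal axes), with points for libraries and bars for the mean of 2. ATP6V0B was lowest in the control at 215 and 279 CPM, while IGFBP4 was low in all 4 siRNA libraries and ATP6V1B2 high in them.

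None of the other genes nearest the threshold passed it in this fit, so their values are given as a description. By the smallest p, the 10 genes in each direction were named. Higher in the siRNA control after ATP6V0B were CSF3, UMAD1, PPP1R15A, SNX2, UBAP1, TOMM7, PRNP, SMOX and ENO2. Lower were TCF25, CD109, SRSF3, IGFBP4, KNOP1, TDP1, GDPD1, PLAG1, HELLS and MGEA5. Their adjusted p ran from 0.109 for CSF3 to 0.312 for MGEA5. Besides ATP6V0B and CSF3, DESeq2 called TCF25, CD109 and GDPD1, thinned counts called TCF25, and 13 of the 18 others passed without the low count filter. CD109 also passed without replicate 1 of the control and SRSF3 without replicate 2. Over the alternatives the adjusted p ran from 0.0108 to 0.611 for TCF25, 0.000641 to 0.906 for CD109, 0.011 to 0.641 for GDPD1 and 0.00389 to 0.7 for SRSF3.

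SNX2, a retromer-associated sorting nexin of endosomes, had 29.9 and 18.6 CPM in the control and 68.4 and 88.4 CPM in the siRNA control (log2 1.69, SE 0.405). UBAP1, a subunit of the ESCRT-I complex that sorts ubiquitinated cargo, had 11.1 and 19.8 CPM against 59.6 and 49.1 CPM (log2 1.82, SE 0.442). Neither passed the test, and both control libraries were below all 10 others for each. SNX2 had the highest difference in a list of 35 endosome and endocytosis genes whose other members mostly did not share its sign. In that list 13 of 35 differences were positive, and the median was -0.19. Both siRNA control libraries were above the control in 5 (14.3%, against 19.4% of all genes) and below in 9 (25.7%, against 17.1%).

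PPP1R15A encodes GADD34, which recruits a phosphatase to eIF2-alpha and is induced in the integrated stress response. It had 111 and 130 CPM in the control and 242 and 303 CPM in the siRNA control (log2 1.18, SE 0.281, adjusted p = 0.202). The knockout clones had 172 to 255 CPM and siRNA SMARCAL1 274 and 230 CPM, so the control was again lowest. TOMM7, a subunit of the mitochondrial import channel, had 70.8 and 75.7 CPM against 265 and 123 CPM.

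Among the lower genes, SRSF3, a serine- and arginine-rich splicing factor, had 391 and 159 CPM in the control and 64.9 and 121 CPM in the siRNA control (log2 -1.56, SE 0.351, adjusted p = 0.202, and -2.09 to -0.77 with 1 library left out). The control replicates differed widely from each other, and all 10 other libraries lay between 64.9 and 121 CPM. TCF25, a component of the ribosome quality control complex, had 112 and 107 CPM against 24.5 and 37.2 CPM (log2 -1.81, SE 0.370). HELLS, a chromatin remodeller of the SNF2 family like SMARCAL1, had 59.7 and 55.8 CPM against 14.03 and 18.95 CPM (log2 -1.80, SE 0.466).

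In 2 named genes a group had no counts. UMAD1 had 21 and 26 counts in the siRNA control libraries and 0 in both control libraries, at least 10.4-fold higher against a floor of 3 counts over the control group, or 4.92-fold without replicate 1 of the control and 5.52-fold without replicate 2. Its exons overlap those of RPA3 on the other strand. UMAD1 had 3 to 39 counts in the knockout clones and 11 and 3 in siRNA SMARCAL1, so only the control libraries had none. GDPD1 had 8 and 47 counts in the control and 0 in each siRNA control library, which was at least 27.5-fold lower against the same floor over the siRNA control group. That bound rests on replicate 2 of the control: without it it was 7.57-fold, and without replicate 1 of the control 49.9-fold. Without replicate 1 or 2 of the siRNA control it was 15.3-fold or 12.2-fold. GDPD1 had 0 to 4 counts in the knockout clones and 2 and 6 in siRNA SMARCAL1, so the control pair stood above all other libraries.

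For 14 of these 20 genes the control pair lay outside all 10 other libraries of the plate, above them in 6 and below them in 8. The siRNA control pair lay outside all others for 3 (TDP1, SNX2 and MGEA5). Over all genes tested, the control pair was outside all others in 5.93% and the siRNA control pair in 2.97%. After thinning every library to the shallowest total these shares were 4.50% and 2.39%, and 13 and 4 of the 20. The part that the control's lower depth plays in single genes was not tested further.

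Among the 20, IGFBP4 and CSF3 separated all siRNA libraries from all others. IGFBP4 encodes a secreted protein that binds and restrains insulin-like growth factors. It had 14.4 and 28.5 CPM in the control, 1.75 and 3.51 CPM in the siRNA control, 3.40 and 0.989 CPM in siRNA SMARCAL1 and 9.33 to 63.5 CPM in the knockout clones. These were 2 and 5 counts in the siRNA control and 5 and 1 in siRNA SMARCAL1, near the floor of 3 counts, so the size of the difference is uncertain. The groups did not overlap in either contrast, with a log2 difference of -2.94 (SE 0.688, adjusted p = 0.202, and -3.54 to -2.38 with 1 library left out) in the first and -3.49 (SE 0.623, adjusted p = 0.00500) in the second. CSF3 is described with the cytokines.

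Cytokines made up the list with the highest median. Of 39 listed cytokine and chemokine genes, 17 were tested and 22 were too low, of which 15 had 0 counts in all 4 libraries and none of the others had more than 14 counts in a library. None of the 17 passed the adjusted threshold, and 6 had an unadjusted p under 0.05, all 6 higher in the siRNA control. Over all genes, 4.21% were higher and 3.48% lower at that unadjusted p. In 14 of the 17 both siRNA control libraries were above both control libraries and in 1, IL18, below, against 19.4% and 17.1% of all genes. Their median log2 difference was 0.97, against 0.01 over all genes, and leaving out any 1 of the 4 libraries moved it between 0.905 and 1.15. Members that pass a filter through the group where they are high must differ, so the sum over all 39, which uses no filter, is given too. It was 1458 and 1688 CPM in the control and 2810 and 3248 CPM in the siRNA control. Without CSF3 it was 841.6 and 1151 CPM against 1431 and 1744 CPM, and without CSF3 and IL1A 503.2 and 667.4 CPM against 894.1 and 1029 CPM. The groups did not overlap in any of these sums. The full sum was 3531 and 3673 CPM in siRNA SMARCAL1 and 934.1 to 2578 CPM in the knockout clones, highest in clone 1. Without CSF3 the clones had 737.2 to 1783 CPM, and without CSF3 and IL1A 648 to 945.2 CPM. Both of these reduced sums in the clones thus overlapped those of the siRNA control.

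CSF3, which encodes the granulocyte colony-stimulating factor G-CSF, was the most abundant (chromosome 17, 40015361 to 40017813, plus strand, GRCh38). It had 616 and 537 CPM in the control, 1380 and 1503 CPM in the siRNA control, 1323 and 1434 CPM in siRNA SMARCAL1 and 197 to 796 CPM in the knockout clones. All 4 siRNA libraries lay above all 8 others. The siRNA control exceeded the control by a log2 of 1.32 (SE 0.261), which did not pass in the edgeR test (adjusted p = 0.109). It passed in DESeq2 (0.0181) and limma-voom (0.0122), after thinning (0.0341), with only the 4 libraries (0.0434) and without the low count filter (0.000141). In the other 9 of 14 alternatives, which include leaving out each of the 4 libraries, it did not pass, with an adjusted p of 0.0815 to 0.377. Against the knockout clones CSF3 rose by 1.80 in siRNA SMARCAL1 (SE 0.194, adjusted p = 5.57e-06).

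IL1A encodes interleukin-1 alpha, an inflammatory cytokine that cells can release on damage. It had 338 and 484 CPM in the control and 536 and 715 CPM in the siRNA control (log2 0.61, SE 0.265, adjusted p = 0.591). It had 951 and 1197 CPM in siRNA SMARCAL1, and rose there against the knockout clones (log2 1.73, adjusted p = 9.68e-06). The clones themselves spread from 76.4 to 955 CPM, with 955 and 851 CPM in clone 1. The difference between the 2 contrasts had an unadjusted p of 0.00248 (adjusted 0.289).

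IL24, a member of the interleukin-10 family, had 14.4 and 34.7 CPM in the control and 47.3 and 48.4 CPM in the siRNA control (log2 0.97, SE 0.454, adjusted p = 0.625, and 0.46 to 1.72 with 1 library left out). It had 86.4 and 71.2 CPM in siRNA SMARCAL1, and rose there against the knockout clones (log2 2.70, adjusted p = 4.02e-05), which had 2.97 to 49.3 CPM. IL11, an interleukin-6 family cytokine, had 5.53 and 19.8 CPM against 31.6 and 42.8 CPM (log2 1.57, SE 0.648, adjusted p = 0.549, and 0.90 to 2.73 with 1 library left out). It had 47.0 and 47.5 CPM in siRNA SMARCAL1 against 1.19 to 21.3 CPM in the clones, where it rose by 2.70 (adjusted p = 0.00466). As for CSF3, the 4 siRNA libraries of IL11 lay above all 8 others.

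Promoters were sought for CSF3, IL1A, IL24 and IL11, and those of IL24 and IL11 are shown because they held a match to a searched motif. The choice therefore does not rest on level alone. For IL24 the clones, at up to 49.3 CPM, reached the level of the siRNA control. CSF3 and IL1A are named only, the first without an entry in the table used and the second without a match to any motif in the 153 bases searched. Sequences are the 250 bases before the annotated start, 5′ to 3′ on the gene's strand, from RefSeq (GRCh38.p14). Capitals mark motif matches. For IL24 (chr1:206897193-206897442, plus strand) they mark TTTCCCTTTC, which matches the interferon-stimulated response element searched on the reverse strand. For IL11 (chr19:55370464-55370713, minus strand) they mark TGAGTCA, which matches the AP-1 site TGANTCA on both strands.
IL24: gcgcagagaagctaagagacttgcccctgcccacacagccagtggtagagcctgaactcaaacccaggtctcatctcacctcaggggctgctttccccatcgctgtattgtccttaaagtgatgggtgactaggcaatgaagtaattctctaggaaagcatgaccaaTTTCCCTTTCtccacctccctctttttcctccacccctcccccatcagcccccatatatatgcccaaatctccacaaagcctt
IL11: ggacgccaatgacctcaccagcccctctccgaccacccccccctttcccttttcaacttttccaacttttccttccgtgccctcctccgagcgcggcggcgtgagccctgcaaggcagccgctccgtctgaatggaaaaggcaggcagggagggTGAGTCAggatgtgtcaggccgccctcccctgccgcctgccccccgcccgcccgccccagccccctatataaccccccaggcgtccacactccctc

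The IL11 match lay 96 to 90 bases before the start, and the IL24 match 83 to 74 bases before it. Of 35116 promoters in the table, 6.57% held TGANTCA and 3.02% held the interferon-stimulated response element in a window of this length. Searches on both strands for both NF-kappa-B motifs, ATF4 (TGATGNAA) and heat shock (GAANNTTC) motifs found none in either window, and these are held by 22.6%, 5.67%, 3.14% and 5.78% of promoters. A match in letters is not a measured site.

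The remaining cytokines were lower in level. CXCL2, a neutrophil chemokine, had 3.32 and 3.72 CPM in the control and 23.7 and 30.9 CPM in the siRNA control (log2 2.93, SE 0.846, adjusted p = 0.317). The siRNA control pair was the highest of the 12 libraries, with 16.3 and 10.9 CPM in siRNA SMARCAL1 and 2.08 to 17.4 CPM in the clones. IL32 had 185 and 256 CPM against 345 and 378 CPM (log2 0.72, SE 0.269), and the clones reached 369 CPM. CXCL1, CXCL3, CXCL8, CCL2, CCL5, CCL20, IL6 and CSF1 were also higher in both siRNA control libraries than in the control. Their log2 differences were 0.49 to 1.73, and none passed the threshold. The clones reached above both siRNA control libraries for CXCL1 (up to 55.3 CPM), CXCL3 (78.0), CXCL8 (46.9), CCL2 (41.6), CCL20 (43.1) and CSF1 (12.3). For CCL5 they overlapped the siRNA control. For IL6 the clones stayed below it, at up to 6.553 CPM against 13.15 and 9.827 CPM. IL1B overlapped between the groups at 165 and 217 CPM against 213 and 283 CPM. IFNB1, TNF and CXCL10 had 0 counts in all 12 libraries, and IFNL1 had 2 and 0 counts in the control and 14 and 0 in the siRNA control.

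**Figure D2:**
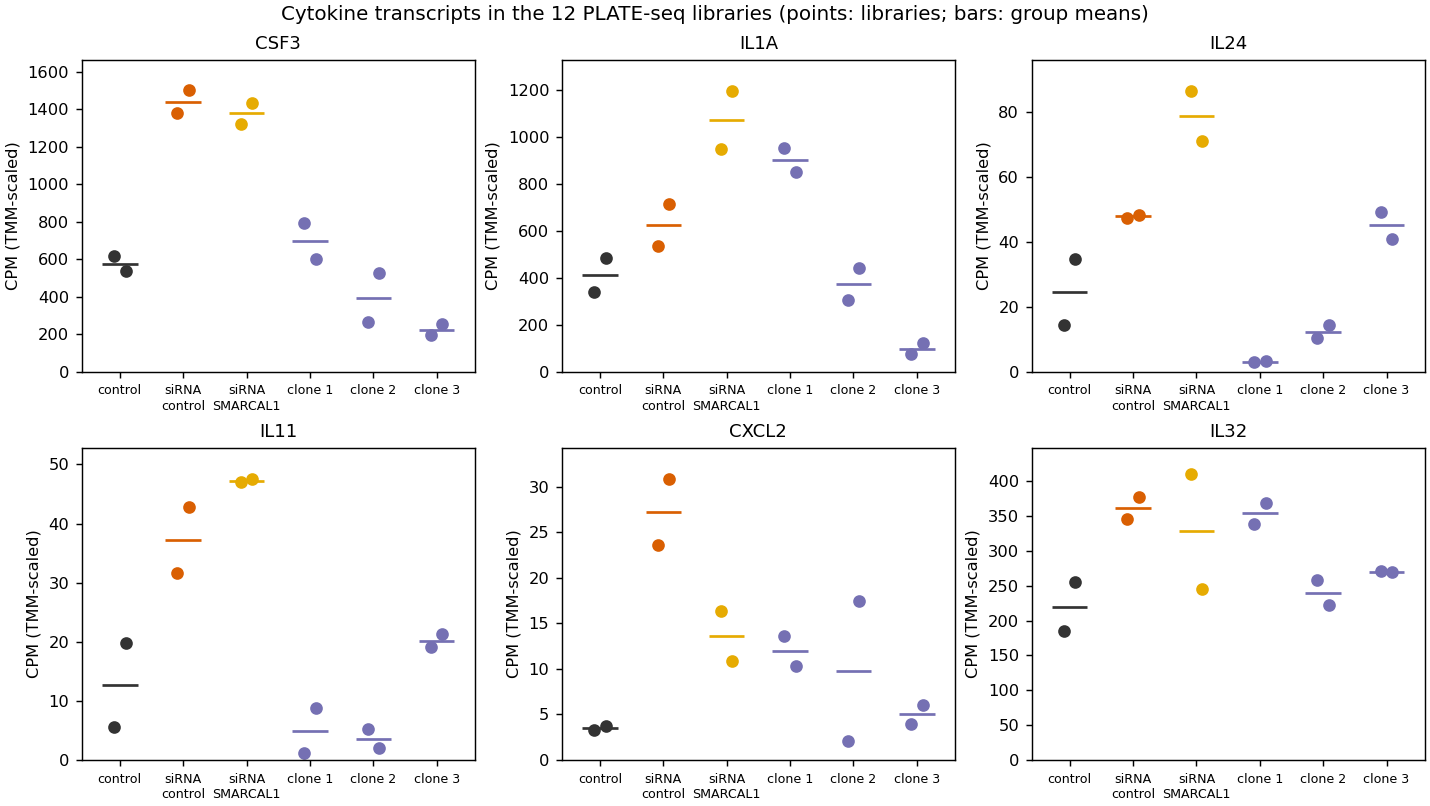
Level of 6 cytokine genes in TMM-scaled CPM (vertical axes, from 0) in the 12 PLATE-seq libraries by group (horizontal axes), with points for libraries and bars for the mean of 2. CSF3 and IL11 were higher in all 4 siRNA libraries than in the other 8, whereas IL1A in clone 1 and IL24 in clone 3 reached the level of siRNA libraries.

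NF-kappa-B is a transcription factor that drives many of these cytokines. Of its 29 tested subunits, feedback genes and targets, of 30 listed, none passed, and the median was 0.42. At an unadjusted p under 0.05, 4 were higher and 0 lower, where 4.21% and 3.48% of all genes were. Both siRNA control libraries were above the control in 11 (37.9%, against 19.4% of all genes) and below it in 0. SOD2, the mitochondrial superoxide dismutase and a classic target, had 144 and 149 CPM in the control and 226 and 256 CPM in the siRNA control (log2 0.72, SE 0.312). It had 262 and 347 CPM in siRNA SMARCAL1 and 101 to 224 CPM in the clones, so the siRNA libraries again lay above the rest. TNIP1, a feedback inhibitor, had 42.0 and 53.3 CPM against 91.2 and 75.1 CPM. BIRC3, an inhibitor of apoptosis, had 3.32 and 0 CPM against 10.52 and 14.04 CPM, but the clones had 10.9 to 16.6 CPM.

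The interferon and RNA-sensing lists had medians close to that of all genes. Of 27 tested interferon-stimulated genes, of 54 listed, none passed and none had an unadjusted p under 0.05. Both siRNA control libraries were above the control in 5 (18.5%) and below in 4 (14.8%), near the 19.4% and 17.1% of all genes. The median was 0.09 and moved between -0.0974 and 0.227 with 1 library left out. OAS3, an enzyme activated by double-stranded RNA, had 106 and 124 CPM in the control and 180 and 152 CPM in the siRNA control, within the 120 to 265 CPM of the clones. Of 18 tested genes of nucleic acid sensing, 2 (11.1%) were apart above and 3 (16.7%) below, with a median of 0.01.

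Of 15 tested genes of the RNA interference machinery, of 17 listed, none passed, and the median was -0.10. Of the 15, 3 (20%) were apart above and 6 (40%) below, against 19.4% and 17.1% of all genes. With 1 library left out the median lay further from 0, at -0.51 to -0.17. It was -0.34 for siRNA SMARCAL1 against the clones. DROSHA, the nuclear microRNA-processing enzyme, had 107 and 100 CPM against 57.0 and 58.3 CPM (log2 -0.85, SE 0.355, adjusted p = 0.555).

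MHC class I presents peptides to CD8 T cells. Of 16 tested genes of MHC class I and peptide loading, of 22 listed, none passed, 14 had a positive difference and the median was 0.35, moving between 0.235 and 0.728 when 1 library was left out. Both siRNA control libraries were above the control in 5 (31.2%, against 19.4% of all genes) and below in 1 (6.25%, against 17.1%). The 5 included peptide transport and loading genes. TAP1, a subunit of the peptide transporter, had 6.64 and 27.3 CPM in the control and 41.2 and 35.1 CPM in the siRNA control (log2 1.18, SE 0.533, adjusted p = 0.601, and 0.48 to 2.50 with 1 library left out). With 48.3 and 43.5 CPM in siRNA SMARCAL1 and 10.7 to 32.4 CPM in the clones, the 4 siRNA libraries lay above the other 8. TAPBP, the tapasin chaperone, had 34.3 and 18.6 CPM against 44.7 and 60.4 CPM.

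HLA-C, a classical heavy chain, had 82.9 and 120 CPM in the control and 92.9 and 138 CPM in the siRNA control, with overlapping groups. HLA-B, another, was lower in both siRNA control libraries, at 42.0 and 47.1 CPM against 24.5 and 38.6 CPM (log2 -0.49, SE 0.436). HLA-E, the non-classical ligand of NKG2A, had 18.8 and 19.8 CPM against 41.2 and 51.9 CPM (log2 1.27, SE 0.419, adjusted p = 0.393), with 37.4 to 48.9 CPM in the clones. B2M overlapped at 111 and 134 CPM against 125 and 159 CPM. The log2 differences of PSME1, PSME2, CANX, CALR and PDIA3 ran from -0.09 to 0.51. Reads of HLA genes can be split between near-identical copies, so these levels are uncertain.

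CD274, which encodes the checkpoint ligand PD-L1, had 11 and 2 counts in the control and 30 and 34 in the siRNA control, or 12.2 and 2.48 CPM against 26.3 and 23.9 CPM. The pooled ratio was 3.23 (exact 95% interval 1.76 to 6.39, for counting error only). The control replicates differed more from each other than the siRNA control replicates. The fitted log2 difference was 1.74 (SE 0.752, adjusted p = 0.589, and 1.03 to 3.29 with 1 library left out), and siRNA SMARCAL1 had 30.6 and 7.91 CPM and the clones 7.64 to 19.1 CPM.

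Among the 34 tested genes of lysosomes and the vacuolar proton pump, of 40 listed, ATP6V0B was the only one past the threshold. At an unadjusted p under 0.05, 8 were higher and 3 lower, where 4.21% and 3.48% of all genes were. Both siRNA control libraries were above the control in 14 (41.2%, against 19.4% of all genes) and below in 6 (17.6%, against 17.1%). The median was 0.23. Leaving out 1 library moved it between 0.0205 and 0.404. ATP6V1B2, a subunit of the catalytic sector of the pump, had 553 and 680 CPM in the control, 947 and 1077 CPM in the siRNA control, 855 and 1101 CPM in siRNA SMARCAL1 and 526 to 710 CPM in the clones. It separated all siRNA libraries from the rest (log2 0.72, SE 0.227, adjusted p = 0.374 in the first contrast). Its partner ATP6V1A went the other way, at 85.2 and 93.0 CPM against 54.3 and 40.7 CPM. LAMP1, a lysosomal membrane protein, was also lower, at 76.3 and 68.2 CPM against 21.9 and 48.4 CPM. The lysosomal hydrolases ASAH1, GLA and HEXA had log2 differences of 1.40, 1.70 and 2.28, and for each the range of the clones enclosed both siRNA control libraries.

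Of 32 tested genes of the unfolded protein and integrated stress responses, of 38 listed, none passed, and the median was -0.04. At an unadjusted p under 0.05, 3 were higher and 1 lower, where 4.21% and 3.48% of all genes were. Both siRNA control libraries were above the control in 7 (21.9%, against 19.4% of all genes) and below it in 3 (9.38%, against 17.1%). HSPA5, the endoplasmic reticulum chaperone BiP, had 79.6 and 74.4 CPM in the control and 134 and 163 CPM in the siRNA control (log2 0.95, SE 0.310, adjusted p = 0.393). ATF4, the response's central transcription factor, overlapped at 85.2 and 65.7 CPM against 65.7 and 89.1 CPM. CARS, a transfer RNA synthetase, had 370 and 104 CPM in the control and 68.4 and 112 CPM in the siRNA control, a difference set by 1 control library. The ATF4-linked genes PSAT1, PHGDH, MTHFD2, SHMT2, SLC7A5, SLC3A2, SESN2, WARS, ATF5 and EIF4EBP1 all had overlapping groups or differed by less than their SE, with log2 differences of -0.80 to 0.26. The chaperones HSP90B1, PDIA6, DNAJC3 and DNAJB11 had log2 differences of -0.46 to 0.37.

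Both siRNA control libraries were above the control in 11 of 27 proteasome genes (40.7%) and below in 1 (3.70%). They were above in 9 of 22 NRF2 and antioxidant genes (40.9%) and below in 2 (9.09%). For immediate early and AP-1 genes they were above in 8 of 23 (34.8%) and below in 2 (8.70%). All genes had 19.4% above and 17.1% below. FOSL1, an AP-1 subunit, had 215 and 223 CPM in the control and 355 and 338 CPM in the siRNA control (log2 0.66, SE 0.250), within the 163 to 413 CPM of the clones. AKR1B1, an NRF2-responsive reductase, had 137 and 120 CPM against 206 and 245 CPM. None of these genes passed the threshold.

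Splicing factors had a negative median, -0.24. Both siRNA control libraries were above the control in 3 of 29 tested SR and hnRNP genes (10.3%, against 19.4% of all genes). They were below it in 12 (41.4%, against 17.1%). Their summed level was 4431 and 4619 CPM in the control and 3445 and 3830 CPM in the siRNA control. It was 3406 to 3715 CPM in the clones and 3540 and 3490 CPM in siRNA SMARCAL1, so the control pair stood above all 10 other libraries. The median for siRNA SMARCAL1 against the clones was -0.03, and leaving out 1 library moved the first between -0.361 and -0.0648. HNRNPAB had 145 and 227 CPM against 62.2 and 57.6 CPM (log2 -1.63, SE 0.534), and the clones, at up to 176 CPM, overlapped the control. SRSF1 was opposite, at 15.5 and 8.68 CPM against 30.7 and 48.4 CPM, and neither passed the threshold.

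Other lists had more members apart below than above, where all genes had 17.1% below and 19.4% above. These were cholesterol synthesis (2 above and 6 below of 25 tested), hypoxia and glycolysis (5 and 7 of 25), mitosis (5 and 8 of 34), DNA replication (6 and 10 of 43), fork remodelling and protection (4 and 6 of 22), p53 targets (3 and 5 of 22), basal markers (0 and 2 of 8) and histones (0 and 2 of 3). The reverse held for cytosolic ribosomal proteins (13 above and 5 below of 72 tested), mitochondrially encoded messenger RNAs (5 and 1 of 13), heat shock chaperones (6 and 3 of 28), metallothioneins (2 and 1 of 5), checkpoint genes (2 and 1 of 13), mesenchymal and matrix genes (6 and 5 of 33) and luminal markers (3 and 2 of 8). Yet the summed metallothionein level was lower in the siRNA control, at 13400 and 15000 CPM against 16210 and 35520 CPM in the control. Medians had the sign opposite to these counts for mitochondrially encoded messenger RNAs (-0.04), mesenchymal and matrix genes (-0.17) and p53 targets (0.075). Genes of the respiratory chain had 12 each way of 71, and the 2 tested endothelial markers overlapped. No gene of these lists passed the threshold. Several lists lay near the shares of all genes, such as mesenchymal and matrix genes at 18.2% above and 15.2% below. No list was tested, so these counts are a description only.

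**Figure D3:**
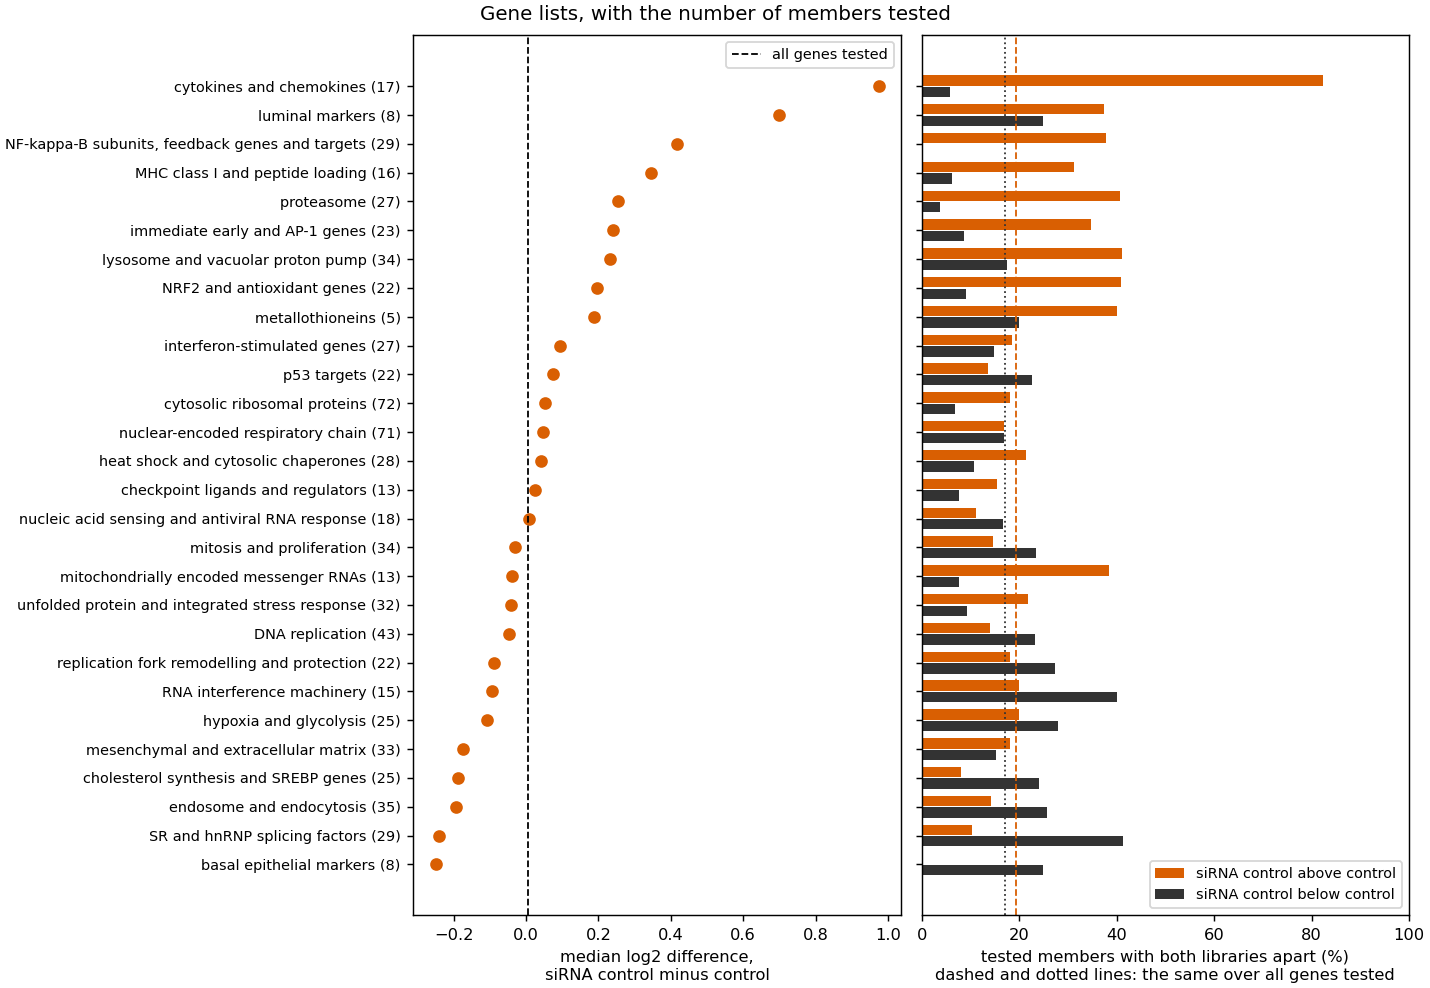
Gene lists with at least 5 tested members, showing the median log2 difference of siRNA control minus control (left axis) and the percentage of tested members whose 2 libraries lay wholly above or below the control (right axis), beside the same over all 8595 genes as lines. Cytokines and chemokines had the highest median, 0.97, with 82.4% of tested members apart above and 5.88% below.

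Whether the siRNA control differed from the control in the way siRNA SMARCAL1 differed from the knockout clones was then examined, since the contrasts share no library. The second contrast had 33 genes past the threshold (0.384%), 18 (0.209%) higher and 15 (0.175%) lower. Of the 18, 12 had the same sign in siRNA control against control, and of the 15, 5, where 50.3% of all genes were above 0. In all, 7 of the 33 had the same sign with an unadjusted p under 0.05 there. Over all genes, 67 passed an unadjusted p of 0.05 in both contrasts with the same sign, 10.1% of the 661 in the first and 7.85% of the 854 (9.94% of genes) in the second, and 28 with opposite signs. Across 8595 genes the log2 differences correlated at r = 0.02, a description only. No gene passed the threshold for a difference between the contrasts by edgeR, 662 (7.70%) did at an unadjusted p under 0.05, and DESeq2 called 19 and limma-voom 1.

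Among the genes lower in siRNA SMARCAL1 than in the clones, 10 of 15 had the opposite sign in siRNA control against control. In that contrast 50.3% of all genes were above 0, and the count of 10 was not tested against this share. IL7R, the interleukin-7 receptor, fell by 1.82 against the clones, and had 111 and 103 CPM in the control and 110 and 68.8 CPM in the siRNA control. EDN1, which encodes endothelin-1, and PIAS3, a SUMO ligase, also fell there. EDN1 had overlapping groups in the first contrast, and PIAS3 was on the opposite side, at 0 and 4.96 CPM in the control against 16.7 and 14.7 CPM. ATP1B1, a sodium pump subunit, fell by 1.43 against the clones, and had 77.4 and 84.3 CPM against 195 and 169 CPM in the first contrast.

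Combining both, the 4 siRNA libraries were set against the other 8 as the mean of the 2 contrasts, which shares libraries with each. The 2 control libraries thus carry as much weight as the 6 of the knockout clones. In this fit 15 genes passed (0.175%), 10 (0.116%) higher and 5 (0.0582%) lower. The higher ones were CSF3, IL1A, IL24, IL11, ATP6V0B, ATP6V1B2, ADAMTS9, STC1, PTPRN and SPOCD1, and the lower ones IGFBP4, IL7R, CCND1, PTMA and PI3. Of these, 4 were cytokines, among 17 tested. CSF3, ADAMTS9, ATP6V1B2, STC1, IL11 and IGFBP4 had all 4 siRNA libraries apart from all 8 others, which 0.524% of all genes did on the higher side and 0.419% on the lower.

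CSF3 rose by 1.56 in this fit (SE 0.166, adjusted p = 4.33e-06), IL24 by 1.84 (SE 0.289, 0.00116) and IL11 by 2.13 (SE 0.409, 0.0140). ADAMTS9, a secreted metalloprotease of the extracellular matrix, had 43.1 and 42.2 CPM in the control and 91.2 and 114 CPM in the siRNA control, and rose by 1.52 (adjusted p = 0.000990). STC1, the secreted glycoprotein stanniocalcin-1, had 130 and 202 CPM against 249 and 240 CPM, and rose by 0.87 (adjusted p = 0.0140). IGFBP4, with few counts in the siRNA libraries, fell by 3.22 (SE 0.464, adjusted p = 0.000429). CCND1, which encodes cyclin D1, had 338 and 275 CPM against 186 and 154 CPM, and fell by 0.92 (adjusted p = 0.0401). For IL7R and PI3 the siRNA control overlapped the control, so their calls went with the level of the knockout clones. CSF3, IL1A, IL24, ADAMTS9 and ATP6V0B were past the threshold in all 21 alternative fits of this contrast, and each of the other 10 was lost in at least 1. ATP6V0B did not separate the siRNA libraries from the knockout clones, which reached 854 CPM against 594 CPM in the lower siRNA control library. It rose by 1.62 in siRNA control against control, but by 0.54 in siRNA SMARCAL1 against the clones (adjusted p = 0.294). Its call thus went with the low level of the control.

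**Figure D4:**
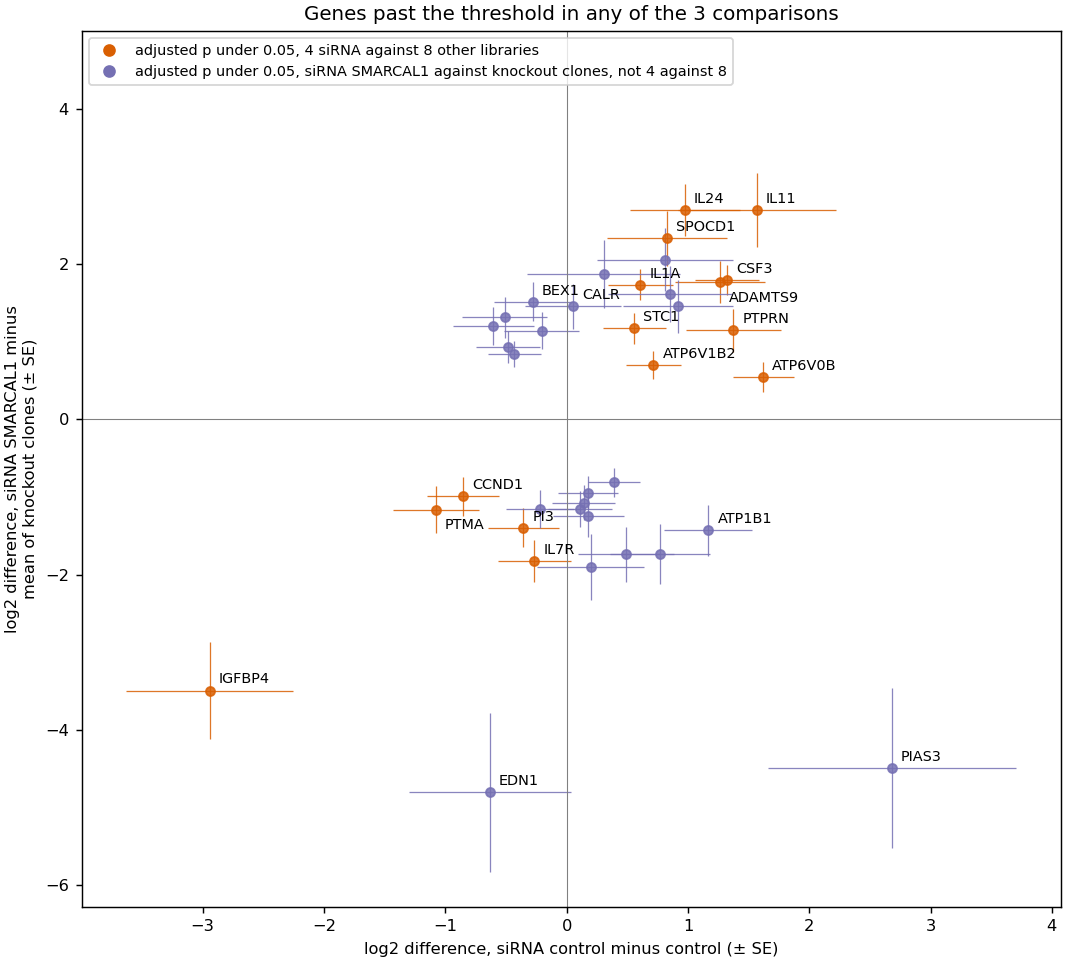
Fitted log2 difference, with its SE, of siRNA control minus control (horizontal axis) and of siRNA SMARCAL1 minus the mean of the knockout clones (vertical axis) for the 38 genes past the threshold in any of the 3 contrasts, orange where the 4 siRNA against 8 other libraries passed and purple otherwise. The cytokine genes CSF3, IL1A, IL24 and IL11 were positive and IGFBP4 negative on both axes, whereas IL7R, at -0.27 and -1.82, lay near 0 on the first.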

How the data were processed

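The deposited values were whole counts by gene symbol from 12 PLATE-seq libraries. The submitters' processing notes name STAR, HTSeq and hg38. Versions, annotation and strand setting are not given in the sources used here. The 6 total RNA libraries of the series were not used. The deposited counts held 44359 entries. The 92 spike-ins, at most 0.0534% of counts, entered neither library sizes nor tests. Symbols damaged by a spreadsheet (28) were not named.

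The 12 libraries, 2 in each of 6 groups, were fitted together in edgeR 4.0.16 (R 4.3.3) with filterByExpr, TMM, robust quasi-likelihood F tests and 6 residual degrees of freedom. The biological coefficient of variation was 0.330. Tests were two-sided, with Benjamini-Hochberg adjustment across 8595 genes and a threshold of 0.05. SEs are the log2 difference divided by the root of F. The fit was tested on simulated counts. Named genes were the 10 with the smallest p in each direction, list members past the threshold, SMARCAL1, CD274, and cytokine, MHC class I and stress genes of at least 30 CPM, of which 1 is not reported here. Genes past the threshold in the other 2 contrasts, and list members below 30 CPM, were named after their values were seen. The comparison and its 31 gene lists were chosen with earlier results of these data known. Replicates are those the labels call biological, and nothing further says how they were separated. Replicate pairs differed beyond counting noise (chi-square per degree of freedom 5.71 in the control and 8.63 in the siRNA control). Coordinates are from GENCODE v29 by symbol, 1-based, and 86 of 88 named genes matched. Alternatives covered normalization, filter, DESeq2 1.42.0, limma-voom 3.58.1, thinning, a replicate block, the libraries fitted and leaving out each library.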

Additional observations from a re-analysis of the deposited data

How the results depend on the processing

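ATP6V0B kept its call in 12 of 14 alternatives, its log2 difference running from 1.27 to 1.90. The count of genes past the threshold moved more. For siRNA control against control, siRNA SMARCAL1 against the clones, the difference of the 2 and the 4 siRNA against 8 other libraries, in this order, it was 1, 33, 0 and 15. It was 31, 91, 46 and 66 without the low count filter, and 5, 73, 19 and 42 by DESeq2. For the first it was 2 by limma-voom, 3 after thinning and 2 with its 4 libraries alone, and for the third 1 by limma-voom and 1 with the replicate block. With clone 1 alone as the reference the second fell to 9. Library totals in place of TMM moved the median of all genes to -0.113 in the second, and its calls from 18 higher and 15 lower to 13 and 29. Leaving out 1 library gave 0 to 5, 6 to 51, 0 to 9 and 7 to 24 calls. The first had 3 without replicate 1 and 5 without replicate 2 of the control, and 0 without replicate 1 of the siRNA control. The second fell to 13 without replicate 2 of clone 1, 17 without replicate 2 of clone 2, and 6 and 8 without replicate 1 and 2 of siRNA SMARCAL1, and reached 51 without replicate 2 of clone 3. The fourth had 8 and 9 without replicate 1 and 2 of the siRNA control, 7 and 9 without those of siRNA SMARCAL1, 10 without replicate 1 of the control, and 24 without replicate 2 of clone 3. In the third, 8 came without replicate 1 of clone 3 and 9 without replicate 2 of the siRNA control. The cause was not tested.

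Deviations of same-numbered libraries from group means correlated at 0.0237 between the control and the siRNA control. Over 15 pairs of groups they correlated at -0.0579 to 0.0556. These values cannot exclude a pairing by replicate number, with which the spike-in share went in every group. With the replicate block the counts were 1, 31, 1 and 16.

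Signs turned for genes with small differences in siRNA control against control. PDIA3 was -0.001467 with library totals, -0.0001138 by DESeq2 and -0.02762 after thinning, and WARS 0.005296 after thinning. Leaving out 1 of the 4 libraries gave, from lowest to highest, AMOTL2 -0.14 to 0.44, ATF4 -0.20 to 0.24, BEX1 -0.64 to 0.0332, CALR -0.19 to 0.33, CANX -0.38 to 0.26, DNAJB11 -0.18 to 0.39, EDN1 -1.15 to 0.20, HLA-C -0.13 to 0.48, IL7R -0.63 to 0.0368 and ITGA5 -0.73 to 0.17. It gave MTHFD2 -0.35 to 0.00779, PDIA3 -0.31 to 0.44, PHGDH -0.25 to 0.38, PSAT1 -0.54 to 0.11, PSMF1 -0.0260 to 0.29, S100A10 -0.52 to 0.0269, SESN2 -0.17 to 0.52, SHMT2 -1.40 to 0.26, SLC3A2 -0.87 to 0.33, SLC7A5 -0.40 to 0.56 and WARS -0.44 to 0.20. At these depths 3 counts were 3.37 and 3.71 CPM in the control and 2.66 and 2.05 in the siRNA control, so differences in genes of a few CPM were not detectable.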
